A study of Homo sapiens with 6 samples.

Results

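The genes described here are 33 genes of the ATF4 and amino acid response, taken by symbol from a table of 27328 loci measured by RNA-seq in SACC-83 cells, an established human cell line from salivary adenoid cystic carcinoma. All 33 were found, and 30 of them passed a filter of at least 1 FPKM in at least 3 libraries. The other three, NUPR1, ALDH1L2 and VLDLR, lay below it and stand outside the counts of tested genes. FPKM is a fragment count divided by gene length and by the library's total, so levels of different genes can be compared per length.

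The study compared 3 libraries of cells carrying an empty vector, with the genotype given as WT, and 3 libraries of cells made to overexpress circMYBL1, a circular RNA named after the MYBL1 gene. In the genotype labels the overexpression libraries read circMYBL1, circMYBL2 and circMYBL3 for replicates 1, 2 and 3, whereas the design text names circMYBL1 alone, so whether they are replicates of 1 construct remains uncertain. Replicate numbers 1, 2 and 3 occur in both groups, but their meaning is not given, nor whether the libraries of a group came from separate cultures. A p-value here therefore sets a difference only against the spread of these libraries, and that spread may be technical. Both groups are the same cell line without further treatment named in the labels.

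MYBL1, the host gene, was measured at 9.04, 7.15 and 10.3 FPKM in the vector libraries, in the order of their numbers, and at 359, 44.03 and 2025 FPKM in those of overexpression. Values are given in this order throughout. All overexpression libraries lay above all vector libraries, with a wide spread among them, and the table does not separate circular from linear reads. Summed FPKM ran from 371776 to 408826. The replicate 2 libraries stood apart in both groups: the 7 myoepithelial and adenoid cystic markers summed to 84.1 and 72.3 FPKM in them against 31.6 to 37.1 in the other 4. This sum was carried by KRT14, TP63 and ACTA2. MYB was at 1.20 and 1.21 FPKM in replicate 2 against 0.688 to 1.06, and KIT was at 0 everywhere. CNN1 and SOX10 lay under 1 FPKM in every library, and CNN1 was lower on average in replicate 2 (0.0802 against 0.158 FPKM). The 6 epithelial markers summed to 1608 and 1858 FPKM in the replicate 2 libraries against 2050 to 2572, a sum carried by KRT8, KRT18 and KRT7. Of the others, CDH1 went the other way, at 21.3 and 20.1 FPKM against 8.61 to 14.6, and EPCAM was at 76.3 and 83.01 against 80.1 to 88.5. The 10 markers of blood, vessel, stromal and liver cells summed to 20.3 and 18.1 against 9.61 to 15.2 FPKM, with PTPRC and CD3E at 0 everywhere and 7 of the 10 under 1 in every library. The part of these marker differences in the results below was not tested. In bulk RNA, fewer cells of a kind and less RNA per cell cannot be told apart. Read depth is unknown, because FPKM values alone were given with no steps of whole reads to be found in them.

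Cells that run short of amino acids, or that face misfolded protein in the endoplasmic reticulum, phosphorylate the initiation factor eIF2, which lowers translation in general while the ATF4 message is translated better. ATF4 protein pairs with C/EBP proteins, binds composite elements in promoters and enhancers, and drives genes for amino acid synthesis and import, tRNA charging and negative feedback on the pathway. Tumour cells rely on several of these genes for serine, asparagine, cystine and glutamine supply. ATF4 is controlled in large part at translation, and mRNA levels do not report its protein.

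The composite element bound by ATF4 and C/EBP proteins has a core that can be written TGATGNAA, in which N is any base. This core was searched on both strands in RefSeq promoter windows of GRCh38.p14, each running from 250 bases before to 50 bases after an annotated start. It was present in 8 of the 27 members with a window (29.6%) and in 1217 of 27305 genes with a window (4.46%). The members were chosen as genes of the ATF4 response, so their larger share is no independent result. Genes could have several windows, 45 for the 27 members and 35116 for the 27305 genes, so the length searched per gene was not equal. SHMT2, ALDH1L2, PSPH, NUPR1, EIF4EBP1 and SLC7A11 had no entry in the window table used here. The 8 stretches are shown because they hold letters that match this core. Each reads 5′ to 3′ on the strand of its gene, the capitals mark the core, and stretches in an annotated exon were kept to 30 bases.
ATF3, chr1:212565176-212565263, plus strand, core at -191 from the nearest start: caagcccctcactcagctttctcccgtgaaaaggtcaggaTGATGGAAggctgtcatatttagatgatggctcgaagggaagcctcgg
CEBPG, chr19:33374031-33374112, plus strand, core at -42: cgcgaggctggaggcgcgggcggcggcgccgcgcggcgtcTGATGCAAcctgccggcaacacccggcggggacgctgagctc
JDP2, chr14:75427966-75428021, plus strand, core at -16: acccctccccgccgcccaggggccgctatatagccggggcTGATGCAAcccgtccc
CHAC1, chr15:40953251-40953280, plus strand, core on the opposite strand at -209: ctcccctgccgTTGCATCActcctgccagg
ASNS, chr7:97872458-97872487, minus strand, core at -68: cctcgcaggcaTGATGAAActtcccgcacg
SLC3A2, chr11:62881725-62881748, plus strand, core on the opposite strand at 37 after the start: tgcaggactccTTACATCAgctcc
SLC7A1, chr13:29595663-29595692, minus strand, core at 7 after the start: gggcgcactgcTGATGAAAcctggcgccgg
SLC1A5, chr19:46784893-46784922, minus strand, core at -97: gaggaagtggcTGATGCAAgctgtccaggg

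CEBPG, JDP2, CHAC1 and SLC1A5 share the form TGATGCAA, read on the strand that holds the core, and ASNS and SLC7A1 share TGATGAAA. A match is a description of letters and not a binding site, and composite elements farther away or within introns lie outside these windows. PPP1R15A, the tested member that differed most between replicate numbers, held no such core. Its window held TGACGTCA, the palindromic cAMP response element, a motif looked for after that sequence had been read. That motif occurred in 1 of the 27 members (3.704%) and in 614 of 27305 genes (2.25%), and as a palindrome it reads the same on both strands. It is in capitals in the stretch below, on the plus strand and starting 58 bases before the start.
PPP1R15A, chr19:48872356-48872385: ctcttcgTGACGTCAgcacgccgggcgcgg

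Most members differed with replicate number, and none was called between overexpression and vector. In both groups, replicate 2 had lower levels of most of them: stress transcription factors ATF3 and ATF5, the phosphatase subunit PPP1R15A, the glutathione-degrading enzyme CHAC1, the serine-synthesis enzyme PSAT1, the transporter heavy chain SLC3A2 and the secreted glycoprotein STC2 each lay at less than 0.5 times the mean of replicates 1 and 3. In a limma fit with group and replicate number, 20 of the 30 tested members (66.7%) differed between replicate numbers at an adjusted p under 0.05, where 46.5% of all 12064 tested loci did. With replicate 2 set against the mean of replicates 1 and 3, 16 of those 20 were lower (53.3% of the tested members against 19.3% of all loci), by 1.33 to 3.75 times. The other 4 ran the other way: JDP2, DDIT4, SLC38A2 and SLC6A9 were higher in replicate 2 by 1.31 to 2.56 times, 13.3% of the tested members against 27.2% of all loci. Both replicate 2 libraries lay below the other 4 libraries for 18 tested members, a pattern that 25.7% of all loci had, and above them for 4, a pattern that 35.9% had. The 33 members together held 0.383% and 0.369% of the summed FPKM in the replicate 2 libraries against 0.468% to 0.509% in the other 4. The median log2 difference of replicate 2 was -0.47 over the members and 0.07 over all tested loci, on the log2(FPKM + 1) scale that understates changes of low genes. The test asks whether any of the 3 numbers differ, so the difference of replicate 2 is given as a description beside it.

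The share of calls that were lower depended on the scaling. With TPM, which sets every library to the same sum, 33.7% of the called loci were lower in replicate 2, and the member median stood at -0.40 beside 0.14 for all loci. With TMM factors, which moved the median of all loci by -0.14, 60.9% of the called loci were lower against 41.4% as deposited, and with quantile scaling 51.9% were. The member median stood at -0.64 beside -0.08 for all loci with TMM and at -0.45 beside -0.02 with quantile scaling. Every one of the 20 called members kept its direction under TPM, TMM, quantile and GC and length scaling. Members had a median GC content of 54.7% against 48.3% over all tested loci and a median longest transcript of 2578 against 3659 bases. With GC and length correction the member median stood at -0.45 beside -0.0039 for all loci in that fit. In that fit 19 members were called lower in replicate 2 and 5 higher, and 50.3% of all called loci were lower. Over 11166 loci, Spearman's rho of the replicate 2 difference was -0.02 with GC content and 0.21 with length, as a description across genes that share libraries.

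**Figure D1:**
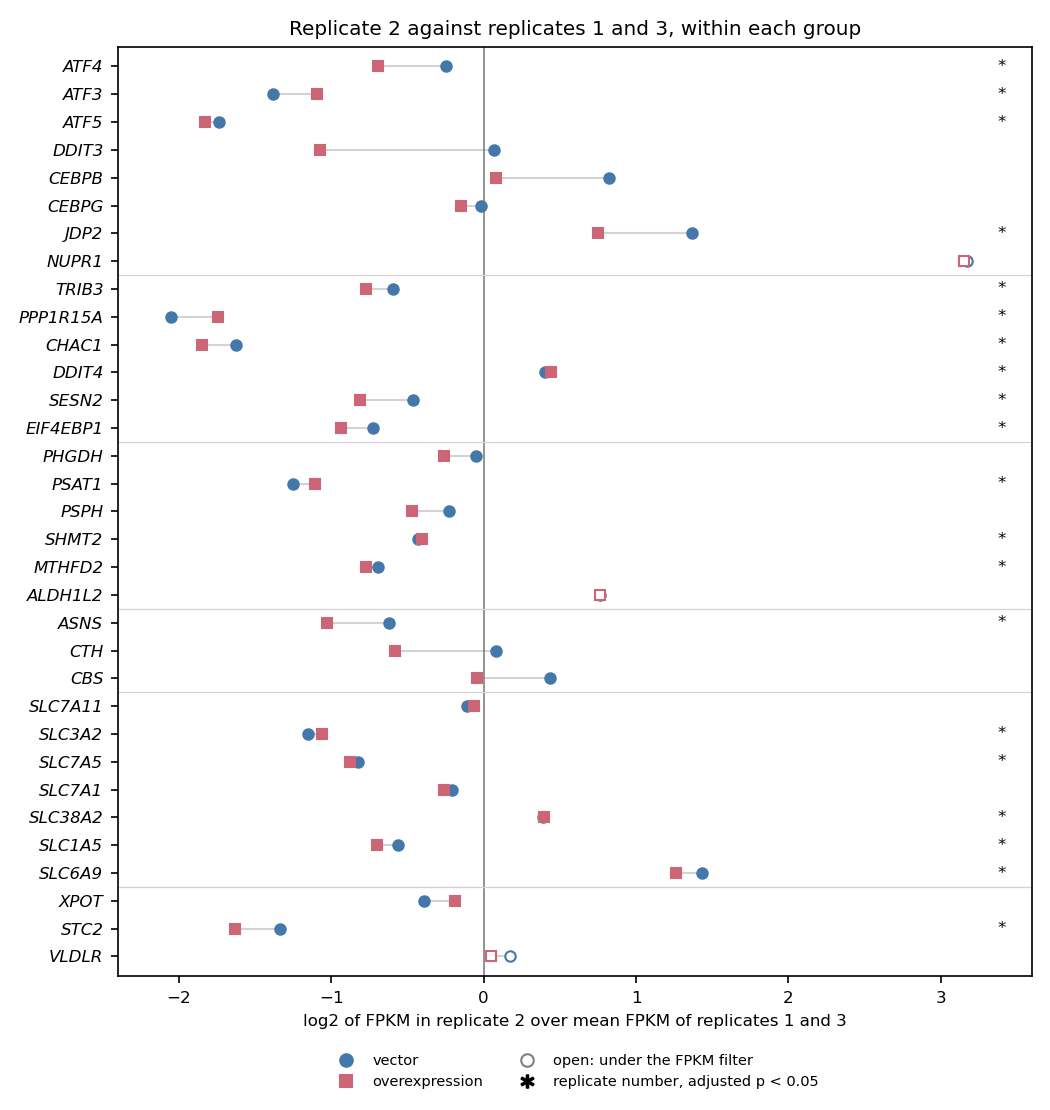
Replicate 2 against replicates 1 and 3 for each member. The x axis is log2 of FPKM in replicate 2 over the mean FPKM of replicates 1 and 3, within the vector group (blue circles) and within overexpression (red squares), and open symbols are the 3 members under the filter. Asterisks mark the 20 members called by replicate number. Most symbols lie left of 0 in both groups, down to PPP1R15A, and NUPR1, SLC6A9 and JDP2 lie farthest right.

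Among the transcription factors, ATF4 itself, the master regulator of the response, was at 167, 146 and 178 FPKM in the vector libraries and at 194, 116 and 181 FPKM in the overexpression libraries. Its lowest library in each group was replicate 2, at 0.844 and 0.619 times the mean of the other replicates of that group, a log2 difference of -0.47 (adjusted p = 0.0243). This was among the weakest calls. Without overexpression replicate 2 the log2 difference was -0.24 (adjusted p = 0.464), and the call was also lost with quantile scaling or with no filter.

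ATF3, a stress-induced repressor and activator of the same bZIP family, was at 51.2, 18.4 and 44.95 FPKM in the vector libraries and 41.1, 19.3 and 41.3 FPKM in the overexpression libraries. ATF5, a paralogue of ATF4 that is likewise controlled at translation, was at 19.05, 4.66 and 12.1 and 22.98, 5.10 and 13.2 FPKM. Both genes were lowest in replicate 2 in each group, with no overlap with the other 4 libraries, by -1.20 for ATF3 (adjusted p = 0.000103) and -1.56 for ATF5 (adjusted p = 1.62e-05) on the log2 scale. ATF5 also differed between replicates 1 and 3, being higher in replicate 1 in both groups. It shares 626 exon bases with NUP62 on the opposite strand (29.8 to 45.3 FPKM), and whether counting used strand is not stated, so its level is uncertain.

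DDIT3, also called CHOP, a factor that ATF4 induces and that promotes cell death under lasting stress, was at 35.6, 34.2 and 29.8 FPKM in the vector libraries and 45.4, 19.5 and 36.8 FPKM in the overexpression libraries. The low overexpression replicate 2 had no counterpart in vector replicate 2, and the replicate numbers did not pass the test (log2 difference -0.48, adjusted p = 0.115). DDIT3 shares 355 exon bases with the methionyl-tRNA synthetase gene MARS on the opposite strand. CEBPG, a dimer partner of ATF4, was the flattest member at 9.45, 9.49 and 9.76 and 10.1, 8.93 and 9.74 FPKM, with a log2 difference of -0.07 (adjusted p = 0.817). CEBPB, another dimer partner, was at 13.8, 26.7 and 16.4 and 30.7, 28.01 and 22.2 FPKM, and its replicate-number difference of 0.44 did not pass either (adjusted p = 0.129). Both outcomes changed when single libraries were left out. CEBPB passed without vector replicate 1 (adjusted p = 0.00884), overexpression replicate 1 (0.00258) or overexpression replicate 2 (0.000488), and DDIT3 passed without vector replicate 1 or 2, at log2 differences of -0.63 and -1.03. DDIT3 also passed on all 6 libraries with TMM (-0.64, adjusted p = 0.0381).

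JDP2, which dimerises with Jun and represses AP-1 and ATF3 targets, ran against ATF3. Its levels were 0.884, 5.32 and 3.24 FPKM in the vector libraries and 1.98, 3.63 and 2.33 FPKM in the overexpression libraries, highest in replicate 2 of each group, and the log2 difference was 0.86 (adjusted p = 0.00854). NUPR1, a small stress-induced chromatin cofactor, was at 0.324, 3.15 and 0.374 and 0.175, 2.61 and 0.413 FPKM, that is 9.03 and 8.88 times higher in replicate 2 than in the other replicates of the vector and overexpression groups. Since it passed 1 FPKM only in the replicate 2 libraries it was under the filter, and with no filter its replicate-number difference had an adjusted p of 0.0214. Both JDP2 and NUPR1 thus had their highest values in the libraries in which ATF3 and ATF5 had their lowest. Of all tested loci, 35.9% lay above the other 4 libraries in both replicate 2 libraries and 25.7% lay below them. The replicate-number call of JDP2 was lost with no filter (adjusted p = 0.132), and its replicate 1 library was the lowest of each group. A relation between these genes was not tested.

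**Figure D2:**
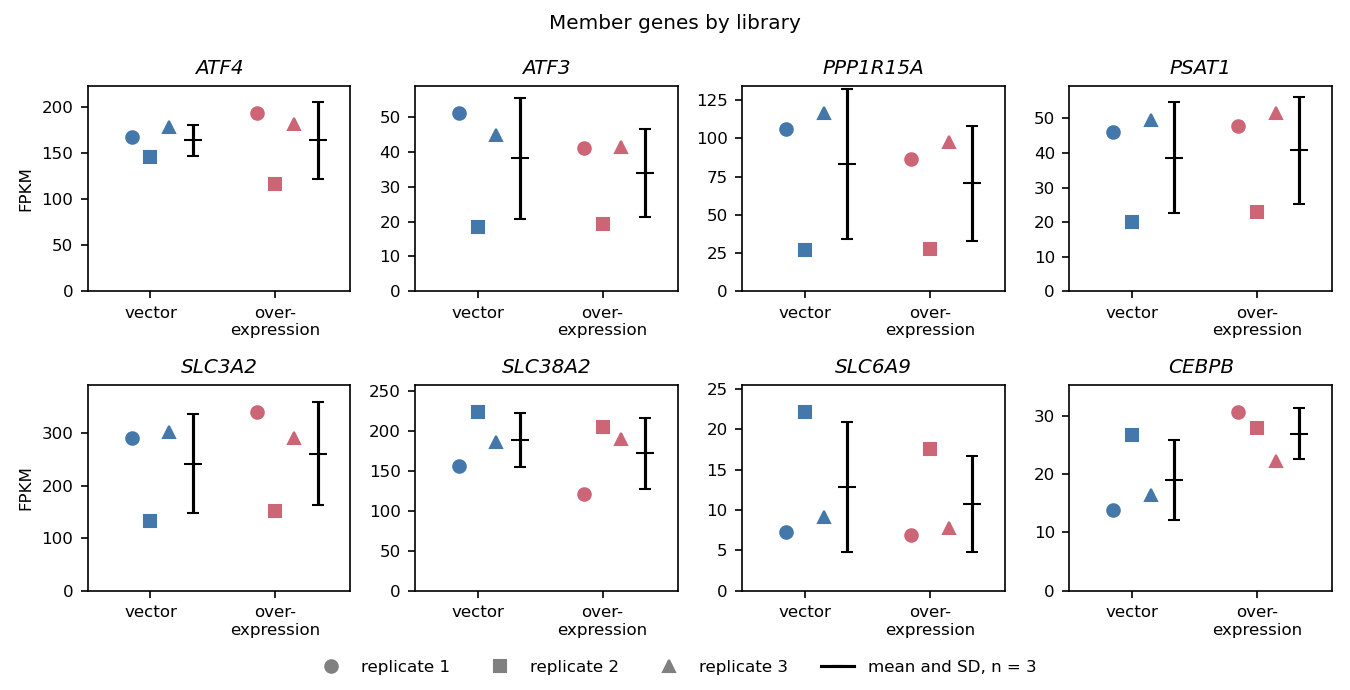
FPKM of 8 members in each library. The y axes are linear and start at 0, symbols give the replicate number, and bars are the mean and SD of 3 libraries per group. Replicate 2 lies below the others for ATF4, ATF3, PPP1R15A, PSAT1 and SLC3A2 and above them for SLC38A2 and SLC6A9, and for CEBPB the overexpression libraries lie at 22.2 to 30.7 FPKM beside 13.8 to 26.7 in vector.

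All 6 feedback and signalling genes differed between replicate numbers (46.5% of all loci did), 5 of them lower in replicate 2 (19.3%). PPP1R15A, also known as GADD34, brings protein phosphatase 1 to eIF2 and so restores translation. It was at 106, 26.8 and 117 FPKM in the vector libraries and 86.7, 27.5 and 97.6 FPKM in the overexpression libraries. Replicate 2 was lower by 3.75 times over both groups (log2 difference -1.86, adjusted p = 9.69e-06), the largest difference among the tested members, and its levels in the 2 groups were nearly the same there. CHAC1, which cleaves glutathione, was at 5.05, 1.65 and 5.18 and 6.39, 1.71 and 5.95 FPKM, lower by 3.35 times in replicate 2 (adjusted p = 0.000121). TRIB3, a pseudokinase that restrains ATF4, was at 31.5, 23.4 and 38.9 and 45.7, 26.1 and 43.8 FPKM, with a log2 difference of -0.66 (adjusted p = 0.00287).

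The 3 brakes on growth signalling in this set did not move together. EIF4EBP1, which holds back cap-dependent translation, was at 54.6, 32.4 and 52.8 FPKM in the vector libraries and 70.8, 34.4 and 60.5 FPKM in the overexpression libraries, lower in replicate 2 by 1.79 times (adjusted p = 0.000575). SESN2, a leucine-binding inhibitor of mTORC1, was at 7.89, 6.33 and 9.52 and 11.3, 5.70 and 8.73 FPKM, lower by 1.56 times (adjusted p = 0.0246), a call lost without overexpression replicate 2 (log2 difference -0.40, adjusted p = 0.223). DDIT4, or REDD1, another mTORC1 inhibitor that also answers to hypoxia and glucocorticoids, was higher instead, at 123, 195 and 171 and 125, 201 and 171 FPKM (log2 difference 0.44, adjusted p = 0.00172). Its replicate 1 libraries were the lowest in both groups, so replicates 1 and 3 differed as well. An antisense gene shares 847 exon bases with DDIT4.

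PHGDH, PSAT1 and PSPH catalyse the successive steps from a glycolytic intermediate to serine. PSAT1, the middle step, was at 46.1, 20.1 and 49.6 FPKM in the vector libraries and 47.7, 23.04 and 51.6 FPKM in the overexpression libraries, lower in replicate 2 by 2.26 times (adjusted p = 7.03e-05). PHGDH, the entry step, was at 69.3, 77.2 and 90.2 and 99.1, 84.1 and 103 FPKM, with a log2 difference of -0.15 (adjusted p = 0.203), and PSPH, the last step, at 15.7, 15.2 and 19.9 and 21.8, 15.9 and 22.1 FPKM, with a log2 difference of -0.33 (adjusted p = 0.0637). With TMM both passed, PHGDH at -0.31 (adjusted p = 0.0358) and PSPH at -0.49 (adjusted p = 0.00976), and PSPH also passed with quantile scaling. The differences between the 3 genes were not tested.

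Of the mitochondrial one-carbon enzymes, SHMT2, which splits serine into glycine and a one-carbon unit, was at 61.3, 43.6 and 56.2 and 78.1, 51.6 and 58.4 FPKM in the vector and overexpression libraries, lower in replicate 2 by 1.33 times (adjusted p = 0.0122). MTHFD2, which oxidises that unit, was at 31.9, 18.4 and 27.6 and 31.5, 18.00 and 30.02 FPKM, lower by 1.66 times (adjusted p = 0.00108). In both, replicate 2 lay below the other 4 libraries. ALDH1L2, which releases the unit as carbon dioxide, was at 0.0800, 0.175 and 0.127 and 0.0426, 0.0730 and 0.0435 FPKM, too low to be tested. MTHFD2 shares 1324 exon bases with SLC4A5 on the opposite strand, which reached at most 0.209 FPKM.

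ASNS, which makes asparagine and is a classical amino acid response gene, was at 27.5, 19.2 and 31.8 FPKM in the vector libraries and 38.8, 18.1 and 35.1 FPKM in the overexpression libraries. Replicate 2 was the lowest of each group, by a log2 difference of -0.79 (adjusted p = 0.00206). ASNS shares 1985 exon bases with AC079781.5 on the same strand, beside a longest transcript of 2356 bases. AC079781.5 has no value of its own here, so the level of ASNS is uncertain. The transsulfuration enzymes, which turn homocysteine into cysteine, did not pass the test on the deposited values. CTH was at 3.36, 3.81 and 3.85 and 3.59, 2.61 and 4.25 FPKM (log2 difference -0.19, adjusted p = 0.365) and CBS at 2.24, 3.86 and 3.45 and 2.76, 3.27 and 3.97 FPKM (0.17, adjusted p = 0.0738). CBS passed with TPM, at 0.27 (adjusted p = 0.0495), and with GC and length correction, at 0.17 (adjusted p = 0.0400). It has a near-identical copy, CBSL, between which reads may have been split, and the sum of both was 4.98 ± 0.739 FPKM in vector and 5.33 ± 1.33 FPKM in overexpression (SD, n = 3).

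Among the 7 transporters, 3 were lower and 2 higher in replicate 2, where 19.3% of all loci were called lower and 27.2% higher, so the count of higher ones is near the share of all loci. SLC3A2, the heavy chain that carries several amino acid exchangers to the membrane, was at 290.0, 133 and 302 FPKM in the vector libraries and 340.2, 151 and 291 FPKM in the overexpression libraries, lower by 2.15 times in replicate 2 (adjusted p = 9.81e-05). One of its light chains, SLC7A5 or LAT1, which imports leucine and other large neutral amino acids, was at 284, 153 and 257 and 320.1, 158 and 259 FPKM, lower by 1.80 times (adjusted p = 0.000258). The other light chain in the set, SLC7A11, which imports cystine in exchange for glutamate, was at 14.7, 14.5 and 16.6 and 9.77, 12.5 and 16.4 FPKM and did not pass the test (log2 difference -0.06, adjusted p = 0.0746). SLC7A11 passed with GC and length correction, at -0.38 (adjusted p = 0.0194). It also passed the F test without vector replicate 1 (adjusted p = 0.00959), where the replicate 2 difference was only 0.049. That test asks whether any of the numbers differ, and in overexpression replicate 1 was at 9.77 FPKM beside 16.4 FPKM in replicate 3. In the deposited values, replicate 2 lay below the other libraries for the heavy chain and LAT1 and overlapped them for SLC7A11.

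SLC1A5, the glutamine importer ASCT2, was at 97.5, 67.1 and 101 FPKM in the vector libraries and 116, 64.5 and 93.1 FPKM in the overexpression libraries, lower in replicate 2 by 1.55 times (adjusted p = 0.00306). SLC7A1, a carrier of arginine and lysine, was at 35.5, 31.4 and 37.00 and 35.9, 28.8 and 33.2 FPKM and did not pass (log2 difference -0.23, adjusted p = 0.178), although both replicate 2 libraries lay below the other 4. It passed with TMM, at -0.39 (adjusted p = 0.0125), and with GC and length correction, at -0.37 (adjusted p = 0.00961). SLC38A2, or SNAT2, a sodium-coupled importer of small neutral amino acids, was higher in replicate 2, at 156, 224 and 186 and 122, 205 and 189 FPKM (log2 difference 0.41, adjusted p = 0.00517). Its replicate 1 libraries were lowest in both groups, and without overexpression replicate 1 the difference was 0.33 (adjusted p = 0.05001), which ended the call.

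SLC6A9, the glycine transporter GLYT1, had the largest upward difference among the tested members, at 7.22, 22.1 and 9.14 FPKM in the vector libraries and 6.86, 17.5 and 7.78 FPKM in the overexpression libraries. Replicate 2 was 2.56 times higher over both groups (log2 difference 1.25, adjusted p = 7.23e-05), and no other library came within its range. SLC6A9 shares 404 exon bases with CCDC24 on the opposite strand, which was at 2.02 to 4.10 FPKM.

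STC2, a secreted glycoprotein induced by stress and hypoxia, was at 36.4, 15.5 and 41.8 FPKM in the vector libraries and 43.9, 13.8 and 41.9 FPKM in the overexpression libraries, lower in replicate 2 by 2.80 times (adjusted p = 5.05e-05). XPOT, the exporter of tRNA from the nucleus, was at 37.2, 29.05 and 39.02 and 33.3, 31.5 and 38.5 FPKM, with both replicate 2 libraries below the other 4 but the test not passed (log2 difference -0.28, adjusted p = 0.0791). It passed with TMM, at -0.44 (adjusted p = 0.0107), and with GC and length correction, at -0.47 (adjusted p = 0.00478). VLDLR, a lipoprotein receptor listed as an ATF4 target, was at 0.129, 0.172 and 0.175 and 0.110, 0.183 and 0.244 FPKM and was not tested.

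Calls by replicate number occurred among members with and without the core, and the difference between these sets was not tested. Of the 8 members with it, 6 were called by replicate number, 5 of them lower in replicate 2, and their median log2 difference was -0.71 with a range from -1.30 to 0.86. Of the 18 tested members with a window and no core, 12 were called, 9 of them lower, and their median was -0.47 with a range from -1.86 to 1.25. Over all tested loci, 46.5% were called by replicate number and 19.3% were called lower in replicate 2. CEBPG and SLC7A1 hold the core and were not called, whereas PPP1R15A and STC2 had no core in their windows and were among the most lowered.

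Other genes of the pathway were counted in the same fit, in lists chosen with earlier results of these data known, where 19.3% of all loci were called lower and 27.2% higher. Of 20 cytosolic aminoacyl-tRNA synthetases, the enzymes that charge tRNA, 16 were called by replicate number, 14 lower and 2 higher in replicate 2, with a median log2 difference of -0.49. VARS, the valyl enzyme, was at 23.9 and 26.1 FPKM in the replicate 2 libraries against 43.6 to 60.2 FPKM in the other 4. WARS, the tryptophanyl enzyme, singled out after its values were seen, was higher in replicate 2, at 135 and 113 against 55.5 to 71.6 FPKM. Of 14 tested further enzymes of amino acid and one-carbon metabolism, 8 were lower and 1 was higher, with a median of -0.43. The median over the members was -0.47.

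The lists upstream of ATF4 and beside it are read against the same shares of all loci, 19.3% called lower and 27.2% called higher. Of 14 eIF2 kinase, eIF2 and eIF2B genes, 5 were lower and 1 was higher in replicate 2, with a median log2 difference of -0.18. Of 15 endoplasmic reticulum chaperones and unfolded-protein genes, 1 was lower, the chaperone HSPA5 (291 and 286 FPKM in replicate 2 against 382 to 412), and 2 were higher, with a median of -0.06. Of 14 amino acid sensors upstream of mTORC1, 1 was lower and 3 higher (median 0.05), and of 7 other amino acid transporters 2 were lower and 2 higher (median 0.16). Among 12 other ATF, CREB and C/EBP factors, 1 was lower and 6 were higher, with a median of 0.31. Of 9 further reported ATF4 targets, 3 were lower and 4 higher (median 0.28), the most lowered being GADD45A, a growth-arrest gene that p53 also induces, at 23.2 and 24.1 FPKM in replicate 2 against 129 to 217 FPKM. Differences between lists were not tested.

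**Figure D3:**
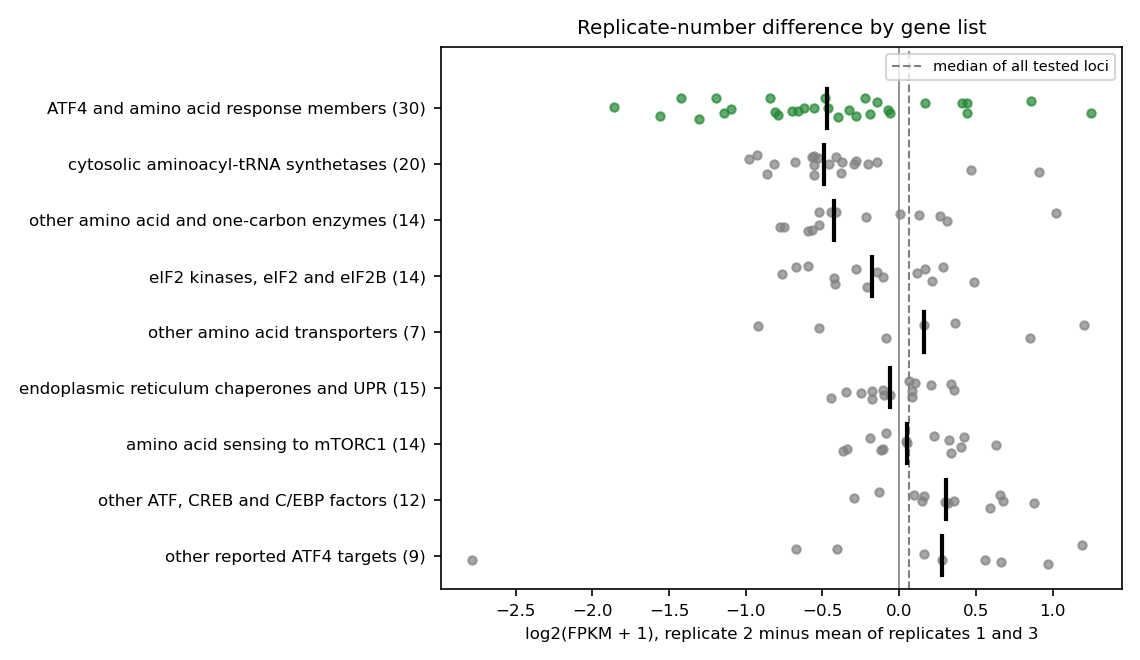
Replicate 2 minus the mean of replicates 1 and 3 on log2(FPKM + 1), for each tested gene of the members (green) and of the other lists (grey), with the number of tested genes in brackets. Black bars are list medians and the dashed line is the median of all tested loci. The medians of the members, the synthetases and the other amino acid and one-carbon enzymes lie between -0.49 and -0.43, and the other lists lie nearer to the dashed line or right of it.

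Overexpression of circMYBL1 against vector, the comparison that the design states, gave no called member. With group as the only term in limma, 0 of 30 tested members passed an adjusted p of 0.05, and 0% of all 12064 loci did. MYBL1 was among these loci and was not called either, although all its overexpression libraries lay above all its vector libraries. Its levels in the overexpression libraries were unequal, at 359, 44.03 and 2025 FPKM. Whether the members followed these levels was not tested. At an unadjusted p under 0.05, 65 loci (0.539%) and 0 members passed. No member had its 3 overexpression libraries all above or all below the 3 vector libraries among those tested, a pattern that 2.50% of all loci had upward and 0.845% downward. The median log2 difference was 0.03 over the members and 0.03 over all loci, and 18 of 30 members were higher on average (58.1% of all loci were). ATF4 was at 164 ± 16.6 FPKM in vector and 164 ± 41.7 FPKM in overexpression (SD, n = 3), a log2 difference of -0.03 with a 95% interval from -0.55 to 0.49.

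The intervals were wide for the members that varied with replicate number, and the number of libraries limits what this fit could detect. For PPP1R15A the log2 difference was -0.17 with an interval from -1.78 to 1.44, and for ASNS it was 0.18 with an interval from -0.58 to 0.93. They were narrowest for the flat genes, such as CEBPG, from -0.30 to 0.30, and SLC7A1, from -0.43 to 0.25. A p that misses the threshold does not show that the groups were alike.

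Comparing same-numbered libraries sets aside the difference between replicate numbers only if the numbers match across the groups, which the labels do not state. Deviations from the group means correlated at 0.881 for replicate 2. For replicates 1 and 3 they correlated at 0.725 and 0.529, beside 0.424 and 0.412 with these numbers swapped. With replicate number as a block, 12 loci (0.0995%) and 0 members were called, and 4 members had an unadjusted p under 0.05 (13.3%, where 7.19% of all loci did): CEBPB, TRIB3, PHGDH and EIF4EBP1. Of the tested members, 10 (33.3%) were higher in overexpression in 3 of 3 pairs, where 16.5% of all loci were: ATF5, CEBPB, TRIB3, CHAC1, EIF4EBP1, PHGDH, PSAT1, PSPH, SHMT2 and SLC7A5. SLC7A11 and SLC6A9 were lower in 3 of 3 pairs, a pattern of 11.9% of all loci. The pairs contributed unequally: the median log2 difference over the members was 0.22 in pair 1, 0.00043 in pair 2 and 0.03 in pair 3, beside 0.06, 0.04 and -0.03 over all loci.

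The member with the largest group difference was CEBPB, at 19.0 ± 6.86 FPKM in vector and 27.0 ± 4.34 FPKM in overexpression (SD, n = 3), a log2 difference of 0.53 (SE 0.26) with an interval from -0.09 to 1.14. Its overexpression to vector ratio was 2.23 in pair 1, 1.05 in pair 2 and 1.35 in pair 3, and the groups overlapped through vector replicate 2. With the block its adjusted p was 0.521. With library weights, which give less weight to libraries far from their group, the log2 difference was 0.46 with an adjusted p of 0.0439, the only such call of a member among the alternatives tried. That fit stopped before full convergence and called 346 loci (2.87%), so 1 call among 30 members is near the share of all loci. TRIB3 had ratios of 1.45, 1.12 and 1.13 and PHGDH of 1.43, 1.09 and 1.14, in both cases largest in pair 1.

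All 5 tested serine and one-carbon enzymes were higher on average in overexpression, by a median log2 difference of 0.21, and 4 of them were higher in 3 of 3 pairs, where 58.1% and 16.5% of all loci were. With single libraries left out the difference ran from -0.30 to 0.46 for PSAT1 and from -0.20 to 0.27 for MTHFD2. PHGDH was at 78.9 ± 10.6 FPKM in vector and 95.4 ± 9.91 FPKM in overexpression (SD, n = 3), a log2 difference of 0.27 with an interval from -0.10 to 0.64. None of the 5 passed the adjusted threshold. The 7 transporters had a median of -0.09, with SLC7A11 at -0.25 (interval from -0.72 to 0.22) and pair ratios of 0.665, 0.866 and 0.988. DDIT3 differed in direction between pairs, with ratios of 1.28, 0.570 and 1.23. ALDH1L2, under the filter, had its 3 overexpression libraries below its 3 vector libraries, with ratios of 0.533, 0.416 and 0.343 at levels of at most 0.175 FPKM, and with no filter its log2 difference was -0.10, not called.

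Without both replicate 2 libraries, 23 of 30 members were higher on average in overexpression, where 54.1% of all loci were, with a median log2 difference of 0.11 beside 0.02 over all loci. In that fit 10 loci and 0 members were called, and 1 member, CEBPB, had an unadjusted p under 0.05 (log2 difference 0.76, adjusted p = 0.533). The share of all loci under that unadjusted p was not counted in this fit, so this 1 member cannot be set against it. No gene of the other pathway lists was called in the group-only fit or with the block. The largest group difference in each list included LAMP3, a lysosomal membrane protein, at 0.66 (1.29 ± 0.470 FPKM in vector and 2.67 ± 1.03 FPKM in overexpression, SD, n = 3, adjusted p with the block 0.169), CRELD2 at 0.33, RRAGA at 0.30, CREB3 at 0.25, GPT2 at 0.17 and SLC36A1 at -0.17.

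**Figure D4:**
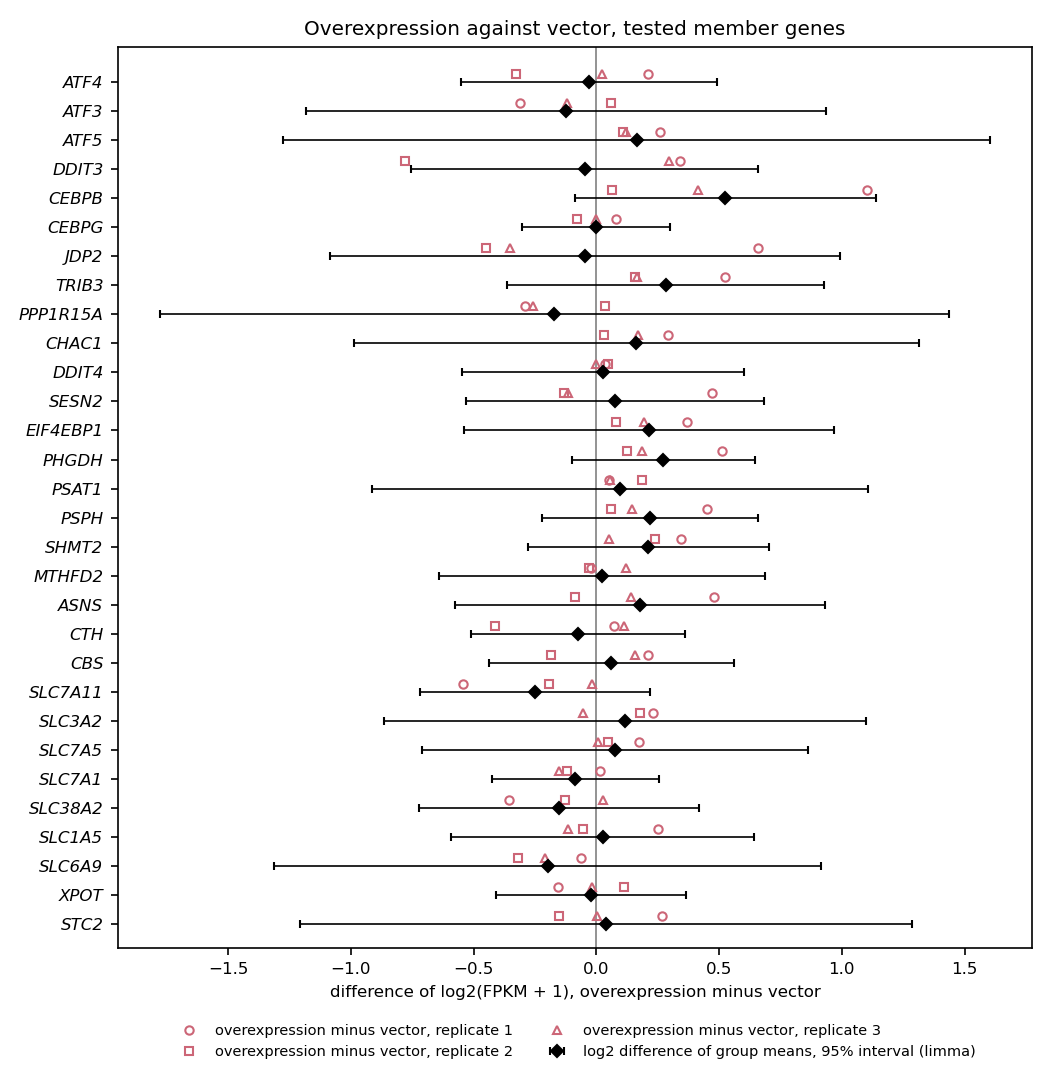
Overexpression minus vector for the 30 tested members on log2(FPKM + 1). Diamonds and bars are the limma group difference and its 95% interval, and open symbols are the differences of same-numbered libraries. Every interval includes 0, and pair 1 gives the highest difference for CEBPB, TRIB3 and PHGDH.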

How the data were processed

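RNA-seq was done on 3 vector and 3 overexpression libraries of SACC-83 cells, grouped by the sample titles. The authors deposited 1 table of FPKM, computed by them for 27328 loci. HISAT2 and GRCh38 are named per the submitters' processing notes, whereas the sources used here do not give the counting tool, annotation or use of strand. The 33 members and the other lists were chosen with earlier results of these data known, and all members are named, with at most 2 genes of each other list by largest difference. Loci with at least 1 FPKM in at least 3 libraries (12064) were fitted on log2(FPKM + 1) in R 4.3.3 by limma 3.58.1, whose eBayes step used a trend. P-values were 2-sided and adjusted by Benjamini-Hochberg over all 12064, with a threshold of 0.05, and the script was tested on simulated data. Overexpression was compared with group as the only term, and replicate number by an F test in a fit with group and number. The fit with number left 2 residual degrees of freedom, to which eBayes added a prior of 7.78 drawn from all loci. With 1 library left out it had 1 residual degree of freedom. An exact permutation test of 3 against 3 libraries cannot go below p = 0.10. Deviations from the group means correlated between libraries of 1 number at 0.725, 0.881 and 0.529, all above a limit of 0.1. The numbers were therefore treated as pairs, on these data and not on the labels. Vector 1 with overexpression 3 (0.424) and vector 3 with overexpression 1 (0.412) lay near the lowest of these and also above the limit. The limit therefore could not decide how replicates 1 and 3 match between the groups. Alternatives were other pseudocounts, filters, scalings, weights and eBayes without a trend, the block, and leaving out each library. GC and length correction and leaving out both replicate 2 libraries were chosen after seeing the data. Positions follow Ensembl identifiers, and promoter sequences come from RefSeq.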

Additional observations from a re-analysis of the deposited data

How the results depend on the processing

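Without read counts, depth sets an unknown limit on low members, and 3 libraries a group limit the rest. The number of members called by replicate number ran from 15 with no filter to 25 with TMM, and from 19 to 25 with 1 library left out, and each of the 20 called members kept its direction in every alternative run. With no filter 3389 loci were called by number, and ATF4, JDP2, SESN2, SHMT2, ASNS and SLC38A2 were not among them. The cause was not tested. Leaving out 1 library gave 3663 loci (without vector replicate 2) to 6174 (without vector replicate 1). TMM added DDIT3, PHGDH, PSPH, SLC7A1 and XPOT to the calls, TPM added CBS, quantile scaling PSPH, and GC and length correction CBS, SLC7A11, SLC7A1 and XPOT. PSPH and XPOT became calls without vector replicate 1 or overexpression replicate 1. Of the uncalled members, the replicate 2 difference turned for SLC7A11 0.011 with TPM and CBS -0.080 with quantile scaling. With 1 library left out it ran from -1.03 to 0.068 for DDIT3, -0.44 to 0.066 for CTH, -0.017 to 0.35 for CBS and -0.17 to 0.049 for SLC7A11.

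For overexpression against vector, 0 members were called in all alternatives but library weights, a fit that stopped before full convergence and called 1 member, 346 loci and 1 gene of the other lists. With the replicate block 12 loci were called, with GC and length correction and the replicate block 2, and with both replicate 2 libraries left out 10. The block itself changed no member's call. Small log2 differences turned in sign as follows. A pseudocount of 0.1 gave JDP2 0.025, and TMM gave MTHFD2 -0.00027. Quantile scaling gave DDIT4 -0.025, MTHFD2 -0.018, SLC1A5 -0.032 and STC2 -0.010. Library weights gave DDIT3 0.26, DDIT4 -0.012, SESN2 -0.11, PSAT1 -0.00095, CTH 0.075, SLC3A2 -0.082, SLC7A5 -0.0069, SLC1A5 -0.12 and STC2 -0.061. GC and length correction, with or without the replicate block, gave CEBPG 0.0025, DDIT4 -0.092, SESN2 -0.026, CBS -0.040, SLC7A5 -0.024, SLC1A5 -0.092 and XPOT 0.030. Leaving out both replicate 2 libraries gave ATF4 0.12, DDIT3 0.32, CEBPG 0.039, JDP2 0.15 and CTH 0.094.

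With each library left out in turn, 0 to 1 loci were called between the groups, and the median over the members ran from -0.067 to 0.30. The log2 difference between the groups took both signs for 23 members, with ranges of -0.17 to 0.20 for ATF4, -0.57 to 0.23 for ATF3, -0.34 to 0.70 for ATF5, -0.29 to 0.30 for DDIT3, -0.033 to 0.044 for CEBPG, -0.53 to 0.34 for JDP2, -0.84 to 0.40 for PPP1R15A, -0.24 to 0.63 for CHAC1, -0.16 to 0.21 for DDIT4, -0.13 to 0.31 for SESN2, -0.022 to 0.52 for EIF4EBP1, -0.30 to 0.46 for PSAT1, -0.20 to 0.27 for MTHFD2, -0.021 to 0.51 for ASNS, -0.20 to 0.072 for CTH, -0.11 to 0.18 for CBS, -0.26 to 0.47 for SLC3A2, -0.20 to 0.36 for SLC7A5, -0.29 to 0.078 for SLC38A2, -0.17 to 0.25 for SLC1A5, -0.58 to 0.25 for SLC6A9, -0.15 to 0.059 for XPOT and -0.39 to 0.56 for STC2.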
